A study of Rattus norvegicus with 6 samples.

Results

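Collagen chains are the polypeptides that wind in threes into the collagens, the main structural proteins of the extracellular matrix. They were taken as all non-control probes whose gene name on the array begins with Col, a number, a and a number. This rule found 37 gene names with 52 probes. Col4a3bp matches the rule by its letters only, since it encodes a ceramide transfer protein, and it is left out of all counts of chains (log2 difference −0.03). The remaining 36 chains had 51 probes, among 26456 gene names and 30367 probes on the array. By family they comprised 10 fibrillar chains, 5 chains of type IV, 4 chains of type VI and 17 chains of other types.

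The RNA came from left ventricle of 6 male rats, hybridised to 1-colour arrays with 1 array per animal. The 3 OLETF rats are of an obese strain with type 2 diabetes and were 27, 28 and 27 weeks old (OLETF 1 to 3). The 3 LETO rats, labelled as healthy controls, are of the related strain without diabetes and were 27, 28 and 28 weeks old (LETO 1 to 3). No treatment is named for either group, and with 1 diabetic and 1 non-diabetic strain, strain and diabetes cannot be told apart. The design text states 3 independent experiments per strain, so p-values measure the spread between these animals. That spread also holds any effect of the slides, which are given below.

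Each collagen molecule is built from 3 chains, and a glycine repeated at a fixed interval along each chain lets them pack into a triple helix. Fibrillar collagens such as types I and III form the tensile fibres between cardiac muscle cells. Type IV forms the sheet of the basement membrane around muscle cells and capillaries, and type VI forms beaded filaments that link cells to the surrounding fibres. Fibroblasts make most fibrillar and type VI collagen of the heart, and more interstitial collagen is a known feature of the fibrotic heart. RNA levels do not measure the collagen protein already laid down.

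The signal is given as log2 of the processed spot intensity minus the array's own 75th percentile, so that 0 is a probe at that percentile. Probes differ in brightness for the same amount of RNA, so the values are compared between animals for 1 probe and not between probes. On each array 75.5% to 79.8% of spots were well above background and no spot was saturated. All LETO arrays and OLETF 1 shared slide 1, and OLETF 2 and OLETF 3 lay on slide 2. Slide 2 held no LETO array, so strain and slide are partly confounded unless slide is a block. With slide as a block the difference is that of OLETF 1 from the LETO arrays on the same slide. The 6 cardiomyocyte markers were all measured, and 0 of their 6 differences, OLETF minus LETO, were above 0. Myl2, the ventricular myosin light chain, lay between 7.25 and 7.38 in LETO and between 7.12 and 7.17 in OLETF (adjusted p = 0.448).

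Some probes show the repeat that defines the family. The sequences below are probes of 60 bases, and capitals mark GG at every ninth base, the start of a glycine codon. They are given because the repeat shows what these probes read. The probe of Col4a1 lies at chr16:83146135-83146194 (rn4, plus strand). The probe with the type IV alpha 6 description is named ENSRNOT00000040428 in the files and lies at chrX:37482127-37482186 (rn4, plus strand). The probe of Col14a1 lies at chr7:92028347-92028406 (rn4, plus strand), and holds 4 of 6 possible marks, counted from a single start. In its left part GG also recurs at every ninth base, but shifted against these marks, and is left in lower case.
Col4a1: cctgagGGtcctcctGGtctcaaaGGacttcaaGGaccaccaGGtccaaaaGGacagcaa
ENSRNOT00000040428: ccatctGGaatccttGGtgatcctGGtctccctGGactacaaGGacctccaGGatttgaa
Col14a1: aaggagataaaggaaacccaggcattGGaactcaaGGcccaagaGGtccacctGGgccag

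An unbroken GG at every ninth base was found in 9 of 30367 probes on the array (0.0296%) and in 1 of the 51 probes of chains (1.96%). Marco and Scara3, scavenger receptors with a collagen-like stalk, had probes with the unbroken repeat too.

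Of the 36 chains 30 were bright enough to be tested, and each of these 30 passed the background filter on every one of the 6 arrays. A gene was called when its adjusted p from limma, with Benjamini-Hochberg adjustment over all 18816 genes tested, was below 0.05. The call rate over all genes was 2.55% (480 genes), with 1.5% higher and 1.05% lower in OLETF. Among the chains 1 was called, Col6a1, which was higher in OLETF, and 0 were called lower. That is 3.33% of the 30 chains, close to the rate over all genes. At an unadjusted p below 0.05 there were 5 chains (16.7%) against 12.4% of all genes. These were Col6a1, Col24a1, Col4a3, Col4a1 and Col18a1.

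The median log2 difference of the chains, OLETF minus LETO, was 0.07, against −0.01 over all genes tested. A value above 0 was found for 21 of 30 chains (70%), against 47.6% of all genes, and 23 of the 30 lay within 0.25 of 0. The median was 0.01 for the 10 fibrillar chains and 0.10 for the 5 chains of type IV. It was 0.17 for the 3 tested chains of type VI, the value of Col6a3, and 0.08 for the 12 tested chains of other types. With slide as a block the medians were −0.06, 0.04, 0.08 and −0.04 in the same order, and −0.04 over all chains. With array weights the median was 0.22 over all chains and 0.28 over the fibrillar chains. The groups did not overlap for 4 chains that were higher in OLETF, namely Col6a1, Col24a1, Col4a1 and Col4a3, against 8.92% of all genes. They did not overlap for 2 chains that were lower, Col2a1 and Col18a1, against 8.43% of all genes. These 6 chains are 20% of those tested, against 17.4% of all genes in either direction.

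**Figure D1:**
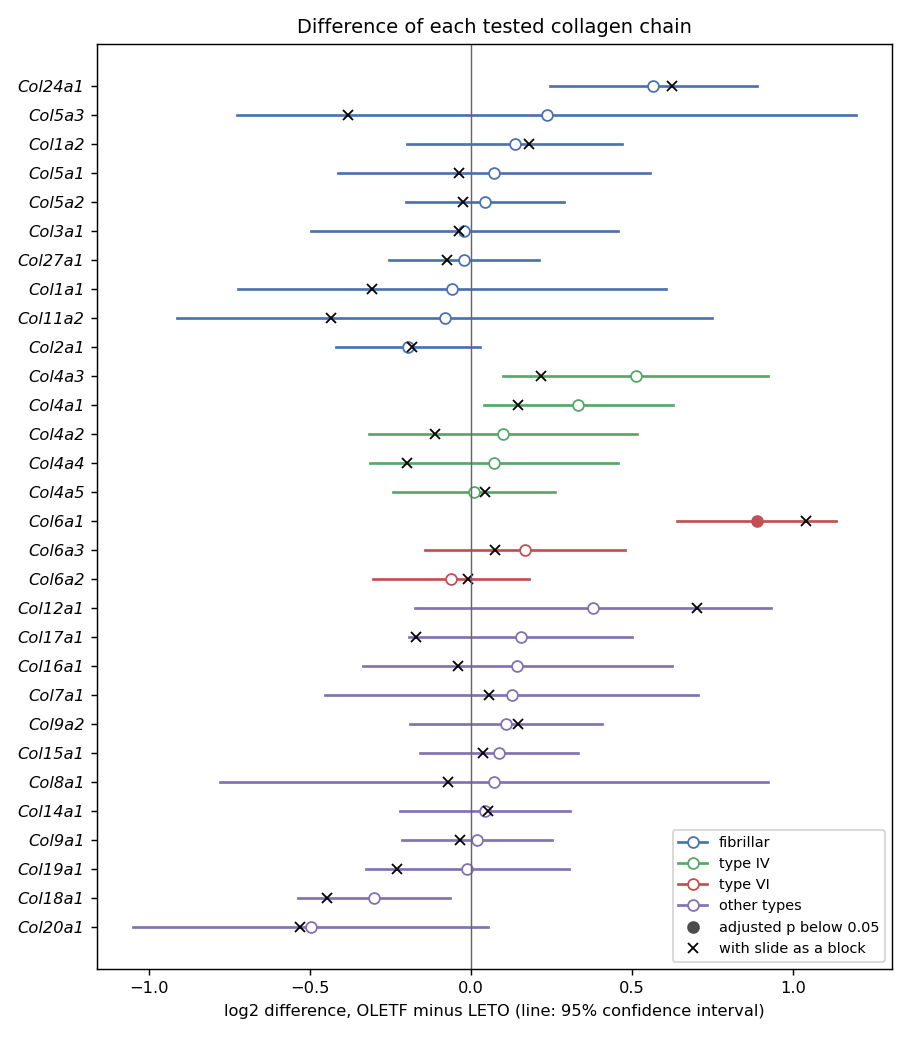
Log2 difference, OLETF minus LETO, of each of the 30 tested collagen chains (circles, grouped by family) with its 95% confidence interval (lines), and the value with slide as a block (crosses). Col6a1, at 0.89, is the filled circle, the chain with an adjusted p below 0.05, and 23 chains lie within 0.25 of 0.

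Type VI collagen is assembled from an alpha 1, an alpha 2 and an alpha 3 or related chain, and of the 3 chains tested the alpha 1 chain rose while the others were not called. Col6a1 (probe at rn4 chr20:12337772-12337831) had values of 1.81, 1.64 and 1.64 in LETO 1 to 3 and of 2.74, 2.48 and 2.54 in OLETF 1 to 3. Every OLETF array lay above every LETO array, and within each strain the arrays lay close together. LETO averaged 1.70 ± 0.10 and OLETF 2.59 ± 0.14 (SD, n = 3 each). The log2 difference was 0.89 ± 0.10 (SE, limma adjusted p = 0.00681), a 1.85-fold higher signal with a 95% interval of 1.56 to 2.20.

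Within slide 1 the log2 difference of Col6a1 was 1.04, and with slide as a block its adjusted p was 0.0478, where 0.558% of all genes (105) were called. It was called under each of the 19 other settings, with log2 differences from 0.81 to 1.04 and adjusted p from 0.000883 to 0.0478. Among all 18816 genes it ranked 170 by p, and it was 157 of 283 in order of fold among the genes called higher. Col6a1 has 1 probe on this array, so no second probe was there to set beside it.

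Col6a2, whose product pairs with that of Col6a1 in each type VI molecule, had values of 4.26, 4.03 and 4.07 in LETO and 4.11, 3.94 and 4.12 in OLETF. The strains overlapped, with a log2 difference of −0.06 (95% interval −0.30 to 0.18, adjusted p = 0.933). Within each array, Col6a1 minus Col6a2 was −2.45, −2.39 and −2.42 in LETO and −1.37, −1.47 and −1.58 in OLETF. This difference between the probes moved by 0.95 between strains (LETO −2.42 ± 0.03, OLETF −1.47 ± 0.10, SD, n = 3 each).

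Col6a3, the longest of the 3, had values of −4.87, −4.96 and −4.72 in LETO and −4.77, −4.83 and −4.44 in OLETF. They overlapped, with a log2 difference of 0.17 (95% interval −0.14 to 0.48, adjusted p = 0.763). A second probe of Col6a3 gave −0.04. Col6a6, a chain that can take the place of alpha 3, was well above background on at most 2 of 3 arrays of a strain by either probe, and it was not tested.

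The stretch of 250 bases before the RefSeq start of Col6a1 (GRCr8 chr20:11905440-11905689, plus strand) is shown because Col6a1 is the chain that was called.
Col6a1: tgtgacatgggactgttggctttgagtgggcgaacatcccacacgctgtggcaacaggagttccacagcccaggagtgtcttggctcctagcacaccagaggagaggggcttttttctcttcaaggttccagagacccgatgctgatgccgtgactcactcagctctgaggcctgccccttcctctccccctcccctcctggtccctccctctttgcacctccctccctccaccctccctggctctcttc
It was searched on both strands for the GC box with the letters GGGCGG, for the letters CCAAT, where the nuclear factor NF-Y is known to bind, and for the TATA box with the letters TATAAA. It held 0 of each, so no letters are in capitals. In the RefSeq promoters, 33469 in all, the GC box was held by 30.5%, CCAAT by 34% and the TATA box by 12.9%.

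Genes that lie near Col6a1 were compared with it, a choice made after its value was seen. Within 1000 kb on rn4 chromosome 20 there were 35 other tested genes, with a median log2 difference of 0.02 and a range from −0.60 to 1.07. Of these 35 genes 1 was called, against 2.55% of all genes. It was Lss, an enzyme of cholesterol synthesis, which was lower in OLETF. Pcbp3, an RNA-binding protein whose probe lies 47.6 kb from that of Col6a1, had 0.54 (adjusted p = 0.0982). The highest value was that of S100b, a calcium-binding protein, at 1.07 ± 0.57 (SE, adjusted p = 0.546), where LETO 3 lay at −6.87 and the other arrays between −4.73 and −4.22. Its probe was well above background on 5 of the 6 arrays. Col6a2, at 127 kb from Col6a1, and Col18a1, at 356 kb on the other side, are the other collagen chains in this stretch, with −0.06 and −0.30.

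**Figure D2:**
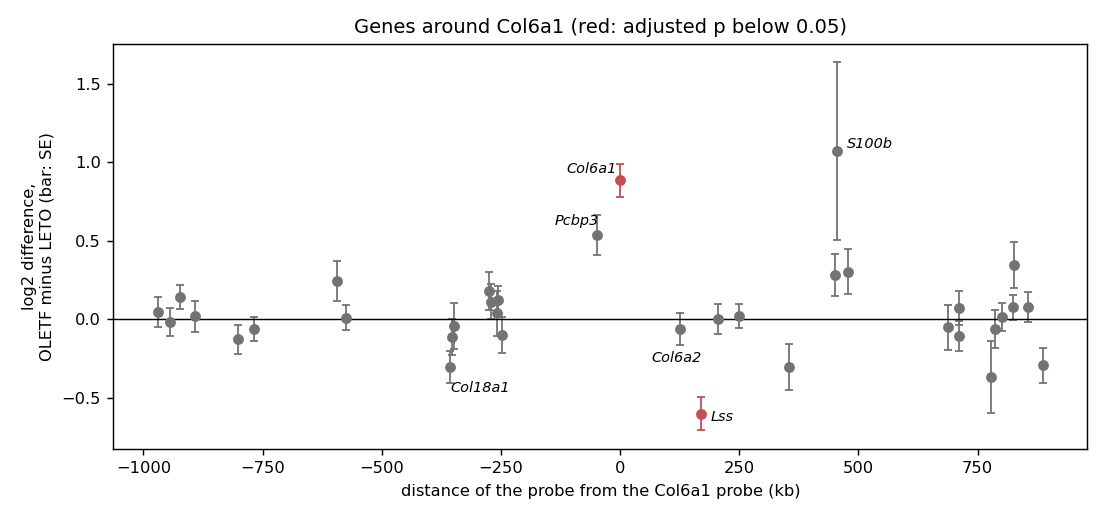
Log2 difference, OLETF minus LETO, with its SE for the 36 tested genes whose probes lie within 1000 kb of the Col6a1 probe on rn4 chromosome 20, by distance in kb. Col6a1 (0.89) and Lss (−0.60), in red, have an adjusted p below 0.05, and the median of the 35 other genes is 0.02.

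None of the 10 fibrillar chains was called. Col1a1, the alpha 1 chain of type I, the most abundant collagen of scar, had values of 1.85, 1.47 and 1.63 in LETO and 1.34, 1.16 and 2.27 in OLETF. OLETF 3 was the highest array and OLETF 2 the lowest, so the OLETF arrays enclosed all of LETO. The log2 difference was −0.06 with a 95% interval of −0.72 to 0.61 (adjusted p = 0.978). The second probe of Col1a1 had 2.00, 1.27 and 1.21 in LETO and 1.35, 1.29 and 1.67 in OLETF, also a difference of −0.06.

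Col1a2, which supplies the other chain of type I, had values of 4.74, 4.88 and 4.38 in LETO and 4.85, 4.70 and 4.86 in OLETF. The arrays overlapped, with a log2 difference of 0.13 (95% interval −0.20 to 0.47, adjusted p = 0.858). Col3a1, the single chain of type III, which is found with type I in elastic tissue, had 4.06, 3.69 and 3.35 in LETO and 3.66, 3.44 and 3.93 in OLETF. Its log2 difference was −0.02 (95% interval −0.50 to 0.46, adjusted p = 0.991), and its LETO arrays alone spanned the range of all OLETF arrays. On the fold scale the limits of this interval were 0.708 and 1.37, OLETF over LETO.

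Type V collagen sits inside type I fibrils and limits their width. Col5a1, its alpha 1 chain, had 0.23, −0.38 and −0.46 in LETO and −0.24, −0.28 and 0.13 in OLETF, a difference of 0.07 (adjusted p = 0.962). Col5a2, the alpha 2 chain, had 1.18, 1.41 and 1.15 in LETO and 1.22, 1.26 and 1.39 in OLETF, a difference of 0.04 (adjusted p = 0.953), and its second probe gave 0.13. Both overlapped between strains. Col5a3 had the widest spread within strain of the tested chains. It had 0.14, −0.21 and 0.61 in LETO and −0.20, 0.10 and 1.35 in OLETF, where OLETF 3 stood highest (0.23, adjusted p = 0.937).

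Col24a1, a fibrillar chain known from developing bone and eye, had the second largest difference of the chains. On the arrays it had −3.59, −3.21 and −3.14 in LETO and −2.69, −2.86 and −2.70 in OLETF. All OLETF arrays lay above all LETO arrays. The log2 difference was 0.57 ± 0.14 (SE) with an adjusted p of 0.0993, so it was not called. The second probe of Col24a1 had −4.95, −5.08 and −4.59 in LETO and −4.22, −4.44 and −4.06 in OLETF, again without overlap, a difference of 0.64 (adjusted p = 0.111 over all probes). With array quality weights Col24a1 was called, at 0.46 (adjusted p = 0.0197), where 1700 of all 18816 genes were called. Within slide 1 its value was 0.62.

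Collagen II is the fibrillar collagen of cartilage. Its chain Col2a1 had −3.69, −3.88 and −3.86 in LETO and −3.99, −3.93 and −4.09 in OLETF. OLETF lay below LETO without overlap, by little, with a log2 difference of −0.20 (adjusted p = 0.491). Col11a2, a chain of type XI that accompanies type II, had −1.14, −2.59 and −1.89 in LETO and −2.31, −1.71 and −1.86 in OLETF, a difference of −0.08 (adjusted p = 0.975). The remaining fibrillar chain, Col27a1, differed by −0.02 (adjusted p = 0.975).

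**Figure D3:**
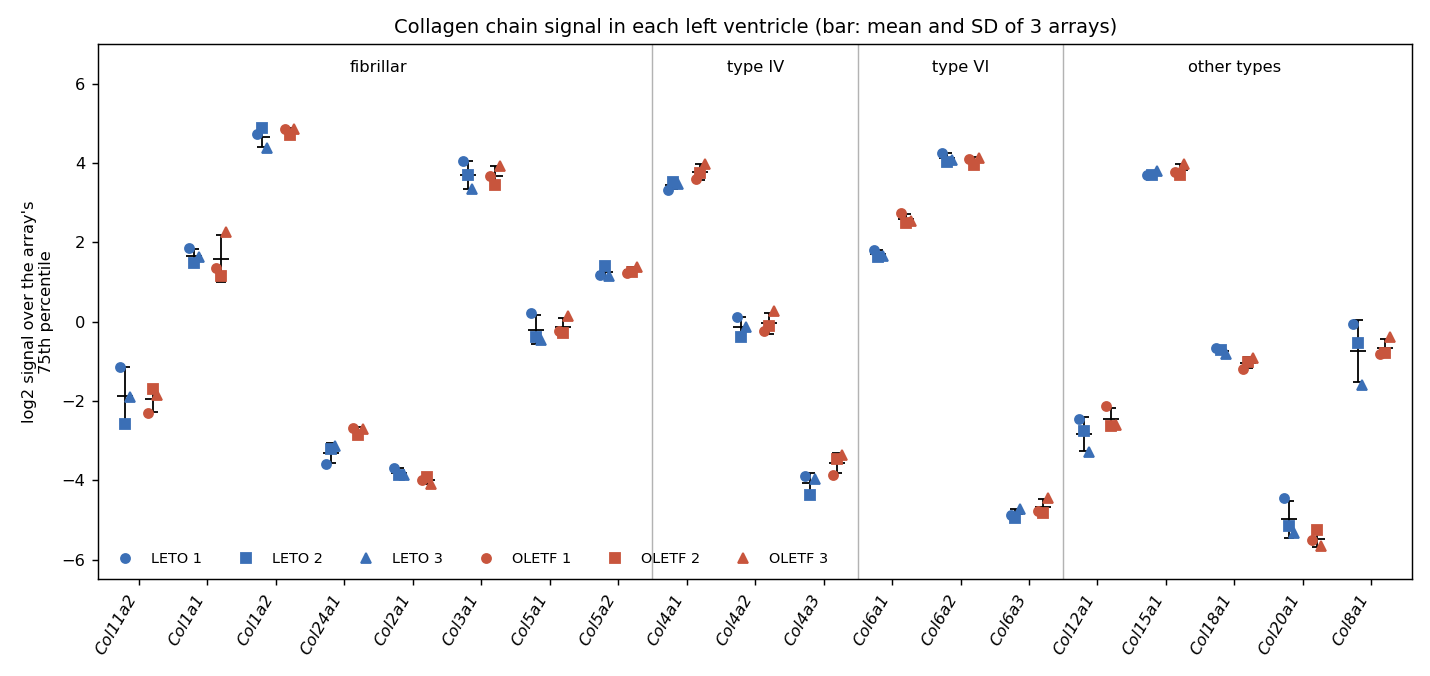
Log2 signal over the array's 75th percentile for 19 collagen chains in each of the 6 arrays (symbols), with the mean and SD of the 3 arrays of each strain (bars), grouped by family. The strains separate for Col6a1, with LETO near 1.70 and OLETF near 2.59, while for Col1a1 and Col3a1 the arrays of the strains overlap. Heights of different chains come from different probes and are not comparable.

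Several collagen chains varied more between animals of the same strain than most genes did. The median spread within strain over the 30 chains was 0.19 (SD on the log2 scale), against 0.15 over all genes tested. It was 0.65 for Col5a3, 0.57 for Col8a1, 0.56 for Col11a2 and 0.44 for Col1a1, which put these 4 chains above the 95th percentile of all genes. By contrast the spread was 0.12 for Col6a1, at percentile 36.0.

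The arrays that were high were LETO 1 and OLETF 3. Of the 30 chains 10 had their highest value in LETO 1 and 10 in OLETF 3, while 11 were lowest in LETO 2 and 10 in LETO 3. As deviations from each chain's mean over the 6 arrays, the fibrillar chains had a median of 0.19 in LETO 1 and 0.18 in OLETF 3. In the other 4 arrays this median lay between −0.11 and −0.03. Type IV followed another order, with 0.35 in OLETF 3, 0.14 in OLETF 2 and −0.27 in LETO 2. For the fibrillar chains, then, the highest animals came from both strains. Without LETO 1 their median difference was 0.17, and without OLETF 3 it was −0.10, against 0.01 with all arrays.

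**Figure D4:**
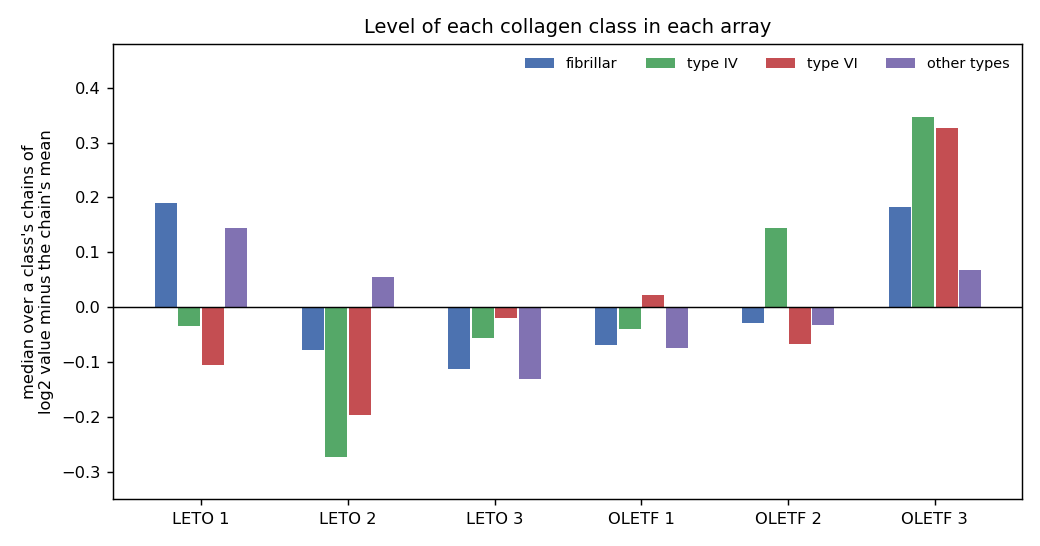
Median over the chains of each family of the log2 value minus that chain's mean over the 6 arrays, for each array. Fibrillar chains stand at 0.19 in LETO 1 and 0.18 in OLETF 3, and type IV chains range from −0.27 in LETO 2 to 0.35 in OLETF 3.

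All 5 type IV chains had values above 0, and none was called. Within slide 1 Col4a2, at −0.11, and Col4a4, at −0.20, lay below 0. Col4a1, the alpha 1 chain of the network found in every basement membrane, had values of 3.32, 3.53 and 3.47 in LETO and 3.59, 3.75 and 3.98 in OLETF. OLETF lay above LETO in all arrays, with OLETF 1 close to LETO 2. The log2 difference was 0.33 ± 0.12 (SE, adjusted p = 0.318). Within slide 1 it was 0.15, and the second probe of Col4a1, the one with the unbroken glycine repeat, gave 0.17 (adjusted p = 0.766 over all probes).

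Col4a2, the partner of Col4a1 in that network, had 0.12, −0.39 and −0.14 in LETO and −0.25, −0.12 and 0.26 in OLETF. These overlapped, with a difference of 0.10 (95% interval −0.32 to 0.52, adjusted p = 0.938). Col4a3, a chain of the specialised network known from kidney and lung, had −3.89, −4.36 and −3.98 in LETO and −3.86, −3.46 and −3.38 in OLETF. OLETF 1 lay just above LETO 1, and the other OLETF arrays lay higher. The log2 difference of Col4a3 was 0.51 (adjusted p = 0.264), and within slide 1 it was 0.22. The remaining chains, Col4a4 with 0.07 and Col4a5 with 0.01, overlapped between strains.

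Type IV genes lie head to head in pairs, and the members of a pair are read outward, away from each other. In the RefSeq table the starts of Col4a1 and Col4a2 are 76 bases apart, those of Col4a3 and Col4a4 412 bases and those of Col4a5 and Col4a6 1414 bases. The interval between Col4a2 and Col4a1 (GRCr8 chr16:84885521-84885596, plus strand) is shown because both genes are read outward from it. Capitals mark the letters of a GC box, GGGCGG, here on the reverse strand.
Col4a2 to Col4a1: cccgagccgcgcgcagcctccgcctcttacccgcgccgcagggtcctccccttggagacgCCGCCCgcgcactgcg
It held 1 GC box, and 18.1% of promoter windows of this length in the table held one. CCAAT and TATAAA were not found in it, against 13% and 4.61% of windows.

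The paired genes gave unequal values, with 0.33 for Col4a1 beside 0.10 for Col4a2, and 0.51 for Col4a3 beside 0.07 for Col4a4. Whether the members of a pair differ was not tested. Col4a1 minus Col4a2 within each array was 3.20, 3.92 and 3.61 in LETO and 3.83, 3.87 and 3.72 in OLETF, which overlapped. The probe with the alpha 6 description, outside the naming rule, had −2.55, −2.74 and −2.77 in LETO and −2.97, −2.96 and −3.06 in OLETF. All OLETF arrays lay below all LETO arrays, with a difference of −0.31 ± 0.09 (SE, adjusted p = 0.194), against the direction of the other type IV chains.

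Collagens of basement membrane zones outside type IV include the multiplexins. Col18a1, the precursor of endostatin, had values of −0.68, −0.72 and −0.81 in LETO and −1.18, −1.01 and −0.92 in OLETF. OLETF lay below LETO without overlap, with a log2 difference of −0.30 ± 0.10 (SE, adjusted p = 0.247). Within slide 1 the value was −0.45 (adjusted p = 0.389 with the block). Col15a1, a related chain of muscle and capillary basement membranes, had 3.70, 3.69 and 3.79 in LETO and 3.76, 3.69 and 3.98 in OLETF, which overlapped, with a difference of 0.09 (adjusted p = 0.888).

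Col8a1, a network-forming chain of vessel walls, had −0.07, −0.55 and −1.59 in LETO and −0.81, −0.79 and −0.39 in OLETF. Its LETO arrays enclosed all OLETF arrays, with a difference of 0.07 (adjusted p = 0.979). Col12a1, which decorates type I fibrils, had −2.45, −2.75 and −3.29 in LETO and −2.13, −2.62 and −2.60 in OLETF, a difference of 0.38 (adjusted p = 0.644). Within slide 1 Col12a1 had 0.70, and its other tested probe gave −0.14 over all arrays. Whether the probes differ was not tested. Col20a1, another chain of this fibril-associated group, had −4.46, −5.15 and −5.34 in LETO and −5.52, −5.26 and −5.67 in OLETF. LETO 1 stood above the rest, and the difference was −0.50 (adjusted p = 0.466).

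Col14a1, also a chain on the surface of fibrils, gave unlike values by its probes. Its brighter probe had 0.04 (adjusted p = 0.959). The probe whose sequence is given above had −1.25, −1.94 and −2.13 in LETO and −2.31, −2.46 and −2.30 in OLETF, so every OLETF array was below every LETO array, and its difference was −0.58 (adjusted p = 0.321 over all probes). Of the 9 chains with more than 1 tested probe, Col6a3, Col11a2, Col12a1 and Col14a1 had probes of opposite sign. The tested chains not yet given, Col7a1, Col9a1, Col9a2, Col16a1, Col17a1 and Col19a1, had differences from −0.01 to 0.15 and none was called.

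The 6 chains that were not tested were Col6a6, Col8a2, Col10a1, Col13a1, Col22a1 and Col23a1, since no probe of theirs stood clear of background throughout either strain. Col10a1 is known from growth plate cartilage. A further 9 probes were described as collagen chains under other names, of which 3 were alpha 1 of type XI and 4 resembled alpha 3 of type VI. Of these 9 only the alpha 6 probe of type IV was tested.

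Genes that act on collagen and markers of cell types were taken as 16 lists, and 136 of their 166 different genes were tested. Comp, Ctgf, Cspg4 and Tcf21 each stand in more than a single list. None of these lists held a called gene in limma, against 2.55% of all genes. Among 21 enzymes and chaperones that modify the chains in the endoplasmic reticulum, 15 had values above 0, with a median of 0.06. P4ha1, the catalytic subunit of prolyl 4-hydroxylase, had −0.51, −0.57 and −0.82 in LETO and −0.22, −0.07 and 0.17 in OLETF, without overlap (0.59, adjusted p = 0.0802). Within slide 1 it had 0.42. Sc65, now P3h4, a partner in lysine hydroxylation, had 0.25 (adjusted p = 0.442), and the collagen chaperone Serpinh1 had 0.07.

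Procollagen proteinases and their enhancers (8 tested, 3 above 0) had a median of −0.10. Their largest values were those of the dim genes Mep1a, at 0.62 (adjusted p = 0.865), and Tll2, at 0.59 (adjusted p = 0.813). For Mep1a OLETF 3 alone stood high, and for Tll2 OLETF 1 alone did. Lysyl oxidases, which crosslink the fibres, had a median of −0.17 over 4 tested genes, of which 2 were above 0, Loxl2 at 0.15 (adjusted p = 0.836) and Loxl3 at 0.17 (adjusted p = 0.903). Lox had −3.15, −3.10 and −2.72 in LETO and −3.71, −4.06 and −2.99 in OLETF, a difference of −0.60 (adjusted p = 0.442), and Loxl1 had −0.48 (adjusted p = 0.649). In both, OLETF 3 lay within the range of LETO.

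Proteases that degrade collagen and their inhibitors (10 tested, 4 above 0) had a median of −0.09. Ctsk, cathepsin K, which cuts within the triple helix, had 0.07, −0.12 and −0.41 in LETO and 0.53, 0.38 and 0.39 in OLETF. The strains did not overlap, and the difference was 0.59 (adjusted p = 0.0857), with 0.68 within slide 1. The inhibitor Timp1 had −0.38 (adjusted p = 0.852), with LETO 1 at 1.75 and the other arrays between 0.06 and 0.47.

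Collagen receptors (10 tested, 6 above 0) had a median of 0.02. Itga1, the alpha 1 integrin that binds type IV, had 3.01, 3.42 and 3.32 in LETO and 3.78, 3.55 and 3.65 in OLETF, without overlap (0.41, adjusted p = 0.223). Antxr1, a receptor of type VI fragments, had −0.26 (adjusted p = 0.338). Other proteins of the basement membrane (10 tested, 7 above 0) had a median of 0.07. Nid1, nidogen, which bridges type IV and laminin, had 1.21, 0.70 and 0.65 in LETO and 1.47, 1.28 and 1.55 in OLETF, again without overlap (0.58, adjusted p = 0.169). Pxdn, the peroxidase that crosslinks type IV, had 0.23 (adjusted p = 0.494).

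Signals and factors that act on collagen transcription (18 tested, 7 above 0) had a median of −0.05. Ctgf, a matricellular protein induced by TGF-beta, had 2.57, 1.56 and 1.97 in LETO and 1.73, 0.58 and 1.42 in OLETF. LETO 1 was highest and OLETF 2 lowest, with a difference of −0.79 (adjusted p = 0.43), and −0.30 within slide 1. Tgfb2 had −0.49 (adjusted p = 0.602) and Tgfb1 had 0.02.

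Since the samples are whole tissue, fewer cells of a type and less RNA per cell cannot be told apart. All 12 genes of the fibroblast list were tested, 8 were above 0 and their median was 0.10. Their summed signal, on the log2 scale, was 7.01 to 7.42 in LETO and 7.37 to 7.43 in OLETF. Gsn, the brightest of the list on every array, weighs most in this sum. It had 6.72, 6.36 and 6.21 in LETO and 6.55, 6.70 and 6.56 in OLETF, which overlapped (0.17, adjusted p = 0.776). Dcn, decorin, which binds fibrils, had 0.40 (adjusted p = 0.15), and Pdgfra, a receptor of fibroblasts, had 0.33 (adjusted p = 0.329), both without overlap between strains. Tcf4, also in this list, did not overlap in the other direction, at −0.10 (adjusted p = 0.76). Over all genes 17.4% did not overlap. The part of fibroblast content in the value of Col6a1 was not tested.

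Markers of activated fibroblasts had the lowest median of the cell type lists of more than 5 tested genes, −0.44. Of 11 such markers 9 were tested and 0 had values above 0, against 47.6% of all genes. At an unadjusted p below 0.05 there were 3 of the 9, against 12.4% of all genes. Their summed signal was 2.82 to 3.36 in LETO and 2.06 to 2.57 in OLETF, without overlap. In such a sum the brightest markers weigh most, and Ctgf, the brightest on every array, overlapped between strains. Acta2 had 0.29, 0.74 and 0.60 in LETO and −0.06, 0.28 and 0.07 in OLETF, a difference of −0.44 (adjusted p = 0.239). LETO 1 was its lowest LETO array, as for Myh11 and Tagln among the smooth muscle markers, but not for Rgs5 and Pdgfrb. The part of smooth muscle in the value of Acta2 was not tested. Postn and Comp, given next, are dim and add little to the sum. Postn, periostin, had −2.25, −3.63 and −4.87 in LETO and −5.68, −5.68 and −4.65 in OLETF, a difference of −1.75 ± 0.63 (SE, adjusted p = 0.299). The Postn probe was well above background on only 5 of the 6 arrays. Comp, a protein of cartilage and scar, had −1.21 (adjusted p = 0.173). LETO 1 stood apart here, with a median deviation of 0.93 over these markers against −0.48 to 0.29 in the other arrays. LETO 1 was also the array with the highest fibrillar chains in LETO, and the part of these cells in that was not tested.

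Cartilage and valve markers had a median of −0.54 over 4 tested genes of 7, and Acan, the proteoglycan that defines cartilage, was not bright enough to be tested. Of the 4, Chad and Comp lay below 0, and Matn1, at 0.13 (adjusted p = 0.908), and Sox9, at 0.21 (adjusted p = 0.741), above it. Chad, chondroadherin, had −1.40, −2.57 and −4.62 in LETO and −5.01, −4.56 and −4.97 in OLETF, a difference of −1.99 (adjusted p = 0.304). High values of Chad thus lay in LETO 1 and LETO 2. Smooth muscle and pericyte markers had a median of −0.02 over 7 tested genes, of which 2 were above 0. Those were Cspg4 at 0.03 and Rgs5 at 0.04, while the largest differences were Myh11 at −0.79 (adjusted p = 0.436) and Tagln at −0.78 (adjusted p = 0.362).

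Medians of the remaining lists were −0.02 for 10 endothelial markers and 0.10 for 5 macrophage markers. They were −0.15 for 4 Schwann cell markers, −0.12 for 6 cardiomyocyte markers and −0.24 for 2 markers of the epicardium. The endothelial markers with the largest values were Cldn5 at −0.52 (adjusted p = 0.698) and Vwf at −0.33 (adjusted p = 0.223). Of the 10, 5 were above 0, among them Emcn at 0.27 (adjusted p = 0.496) and Kdr at 0.25 (adjusted p = 0.483). The macrophage markers with the largest values were Emr1 at −0.38 (adjusted p = 0.564) and Lyz2 at 0.28 (adjusted p = 0.349). Endothelial summed signal was 5.40 to 5.49 in LETO and 5.41 to 5.56 in OLETF, which overlapped. The part of endothelial content in the values of the type IV chains was not tested.

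**Figure D5:**
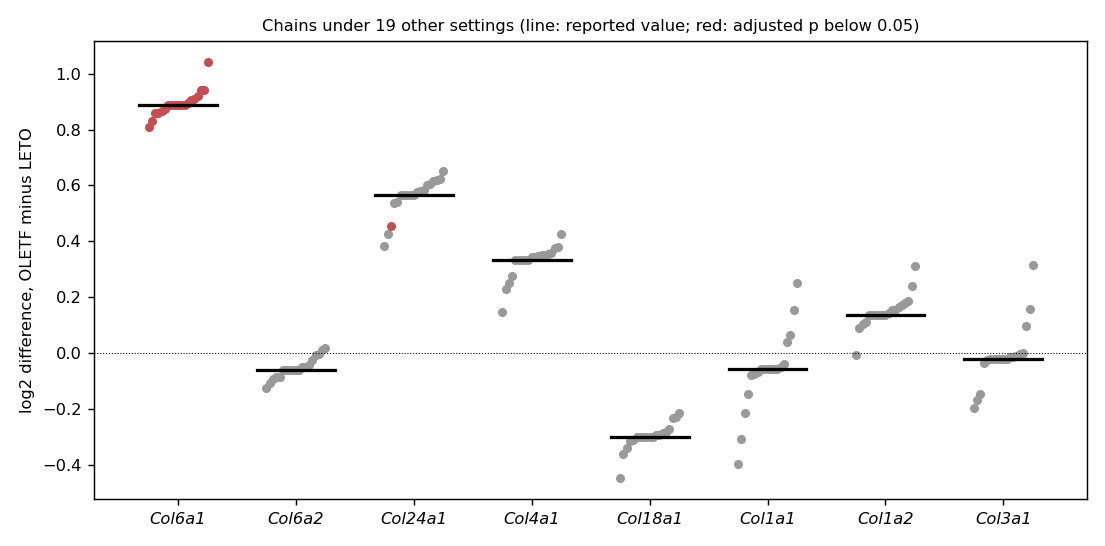
Log2 difference, OLETF minus LETO, of 8 collagen chains under 19 other settings (points, in order of value for each chain) and as reported (black lines). Col6a1 stays between 0.81 and 1.04 with an adjusted p below 0.05 in all of them (red), Col24a1 passes in 1 of them, and Col1a1 ranges from −0.40 to 0.25.

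Col6a1 stayed above 0 under each of 19 other settings, and Col1a1 and Col3a1 crossed 0. Over these settings Col1a1 ranged from −0.40 to 0.25 and Col3a1 from −0.20 to 0.31, and neither was called in any of them. Col4a1 ranged from 0.15 to 0.43 and Col18a1 from −0.45 to −0.21, so each kept its sign without being called. Col6a2 ranged from −0.13 to 0.02 and was not called under any of these settings.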

How the data were processed

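The arrays are of the Rat GE 4x44K v3 design. The file headers name Feature Extraction 10.7.3.1, while the submitters' processing notes name version 9.1. The deposited scanner files hold linear intensity per spot, already background-subtracted in the processed signal per the file headers. The deposited value table holds linear intensity scaled per array, with column medians of 0.163, 0.154 and 0.158 in LETO and 0.154, 0.157 and 0.159 in OLETF. Its logarithms correlated with the processed signal at 1, so its scale is linear and uncentred, and a single colour leaves no direction open. Groups follow the strain labels and array numbers follow the titles. The source name of LETO 2 gives another replicate number.

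Control spots and flagged outlier spots (260 to 356 per array) were dropped, and 17 probes had no spot left. Spots of a probe were averaged as log2 values, and each array's 75th percentile over probes was subtracted. Testing needed a probe to clear background on all 3 arrays of either strain (21484 probes did), and the brightest such probe represented its gene name. Tests used limma 3.58.1 (lmFit, eBayes) in R 4.3.3 after reading with data.table (1.17.8), with Benjamini-Hochberg adjustment at 0.05. The scripts were tested on simulated data. Python 3.11.15 and matplotlib 3.10.9 drew the figures. The number of arrays limits the precision.

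Chains given by array were 13 set by name, every called chain, and up to 5 per direction with the largest differences. From each list up to 4 called genes, or up to 2 with the largest differences where none was called, were named. Other genes named were chosen after their values were seen. The members and the lists were chosen with earlier results of these data known. List genes under older names were found through aliases and RefSeq synonyms. Probe positions are rn4 from the files, promoter sequences are RefSeq on GRCr8 (29 of 36 chains matched), and exon or UTR annotation of rn4 was not used here. Alternatives were quantile normalization, median scaling, normexp (offset 50) with quantile normalization, the value table, other dim-probe filters, the mean of all probes, every probe, eBayes with trend and robust, array weights, a replicate block, age, slide as a block, and each array left out in turn.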

Additional observations from a re-analysis of the deposited data

How the results depend on the processing

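Col6a1 kept its direction and its call under the 19 alternatives, and no chain was called lower in any of them. With normexp and quantile normalization the differences of several dim chains were smaller than reported. They were −0.17 for Col20a1, −0.04 for Col2a1, 0.31 for Col4a3 and 0.38 for Col24a1. With array weights 2 of the 30 chains were called, both higher (2), where 1700 of all 18816 genes were called. The median of all chains was then 0.22 and that of fibrillar chains 0.28. LETO 1 had the lowest weight (0.205) and LETO 3 the highest (3.00). With slide as a block the median of the other types was −0.037. The median of type VI was 0.035 with normexp and quantile normalization and 0.065 with the mean of all probes.

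Counts over all genes moved more. Without the filter on dim probes 240 genes were called (149 higher, 91 lower), with array weights 1700 (875 higher, 825 lower) and with slide as a block 105 (52 higher, 53 lower). Between arrays with the same replicate number the correlations of deviations were −0.09, −0.14 and −0.01. Since OLETF 2 and OLETF 3 lay on another slide than LETO, these values cannot show whether the animals were paired. The replicate block gave 301 called genes (166 higher).

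Leaving out each array gave 199 (without OLETF 2) to 615 called genes (without LETO 1), with 110 to 374 higher and 87 to 241 lower, while 1 chain stayed called each time. Counts fell below 480 divided by 1.5 without LETO 2 (281), LETO 3 (317), OLETF 1 (314), OLETF 2 (199) and OLETF 3 (215). The median of fibrillar chains then ranged from −0.10 (without OLETF 3) to 0.17 (without LETO 1), that of type VI from 0.00147 (without LETO 2, when Col6a6 entered) to 0.24, and that of the other types from −0.048 (without LETO 3) to 0.13. Fewer samples enter these fits, and the cause of the other shifts was not tested. Chains near background and 3 arrays per strain limit what could be detected.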
